A study of Oryctolagus cuniculus with 4 samples.

Results

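The spots described here are those of the section taken 16 weeks after tenotomy in which 2 or more UMIs (unique molecular identifiers, each standing for 1 captured transcript) of COL1A1 were counted. COL1A1 (ENSOCUG00000012881) encodes the alpha 1 chain of type I collagen, the main fibrillar collagen of scar, fascia and tendon. This rule selected 139 of the 1726 spots of the section, or 8.05% (95% exact binomial interval 6.81 to 9.44), out of 6970 spots in the whole series. They are called fibrous spots after the selecting gene, and they were set against the 1218 other spots of the same section that had 0 COL1A1 UMIs and at least 500 UMIs in all. A further 243 spots had 1 COL1A1 UMI and 126 had 0 with fewer than 500 UMIs, and neither kind entered the comparison. The fibrous spots held 428 of the 671 COL1A1 UMIs of the section (63.8%). Because the level of COL1A1 chose the spots, its values are no result.

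The series holds 4 sections of the supraspinatus muscle of skeletally mature female New Zealand White rabbits, 1 per condition, cut from the posterior distal belly, measured on Visium arrays, whose barcoded spots each capture polyadenylated RNA from a small area of tissue. The supraspinatus is a rotator cuff muscle, and tenotomy is the cutting of its tendon. The labels were read to mean that the 16-week section and a healthy section came from the left and the right shoulder of the same animal. A section taken 2 weeks after tenotomy came, on that reading, from another animal. The study's methods do not state which sections share an animal. The tissues of these sections had been kept frozen for 6 years, while another healthy section was fresh. Each condition is thus 1 section of 1 animal. In any contrast between sections the section cannot be told apart from the condition. By their labels both tenotomy sections were from the left and both healthy sections from the right. The side thus cannot be told apart from the condition in contrasts of tenotomy with healthy sections, and it is shared within either pair. With the labels read this way, the animal cannot be told apart from the condition in contrasts other than that between the 16-week and the stored healthy section.

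Connective tissue in muscle is laid down by fibroblasts, which secrete fibrillar collagens together with the small proteoglycans that bind collagen fibrils, the enzymes that modify and crosslink collagen, and the proteases that turn it over. It also carries the vessels, nerves and macrophages of the muscle, and it thickens between and around the fibers after a tendon is cut. A spot covers several cells, so a fibrous spot can hold fibroblasts, macrophages, vessels and cut muscle fibers at once, and fewer cells of a type and less RNA per cell cannot be told apart.

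The matrix genes and the muscle genes ran in opposite directions in the fibrous spots. UMIs were summed per gene over each group of spots and divided by the summed UMIs of all genes other than the 37 mitochondrial ones, 290904 in the fibrous and 2292807 in the other spots. Levels below are UMIs per 10000 such UMIs, and a ratio is the level in the fibrous over that in the other spots, with a 95% exact interval that covers counting error only. Of the 4386 genes with at least 20 UMIs in both groups together, COL1A1 left out, 747 (17%) were at least 2-fold higher and 296 (6.75%) at least 2-fold lower in the fibrous spots, on a log2 scale to which 0.5 UMI was added. The median gene stood at a log2 ratio of 0.25, so that centering on it gave 448 genes higher and 494 lower, a share of 47.6% of the calls being higher in place of 71.6%. Of the genes compared, 124 reached 20 UMIs only through an excess in the fibrous spots, since at the level of the other spots they would have stayed under it, and 107 of these were among the 747. Such genes had to differ, so counts and medians of lists that hold them are descriptions only. With 1 section there is no replicate and no test, and calls are descriptions of size. The lists and their members were chosen with earlier results of these data known, so list counts are descriptions as well.

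Depth differed little between the groups. The median fibrous spot had 2009 UMIs (95% interval of the median 1800 to 2301, range 469 to 12439) and the median other spot 2271.5 (2156 to 2418, range 504 to 11196), and 1 fibrous spot lay under 500. Without the mitochondrial genes the medians were 1669 and 1562. A median of 717 genes was detected in a fibrous and 640 in an other spot, and 310 and 289 once every spot was thinned to 500 non-mitochondrial UMIs, for which 134 fibrous and 1136 other spots were deep enough. Mitochondrial transcripts made up 20.9% of the summed UMIs of the fibrous and 36.6% of those of the other spots.

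Summed over the collagen, proteoglycan and other matrix lists without COL1A1, matrix genes took a median of 5.61% of the non-mitochondrial UMIs of a fibrous spot (range 0.165 to 13) against 1.49% (0.221 to 9.18) in the other spots. The muscle fiber lists took a median of 5.59% (1.11 to 28) against 15.3% (1.16 to 32.5). Of the 139 fibrous spots 129 lay above the other spots' median matrix share and 116 below their median muscle share. Matrix exceeded muscle in 66 fibrous spots (47.5%, interval 39 to 56.1) and in 57 other spots (4.68%, 3.56 to 6.02). The groups overlapped, since 43 other spots passed the fibrous median for matrix and the fibrous spot richest in muscle transcript reached 28%. Since shares within a spot add up to a whole, a lower muscle share by itself leaves a larger share to all other genes. Both groups were therefore also compared among spots with a muscle share of at most 10.7%, the 75th percentile of the fibrous spots, which kept 104 fibrous and 364 other spots. This alternative was chosen after seeing the data, and its values are given below as values at low muscle share.

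**Figure D1:**
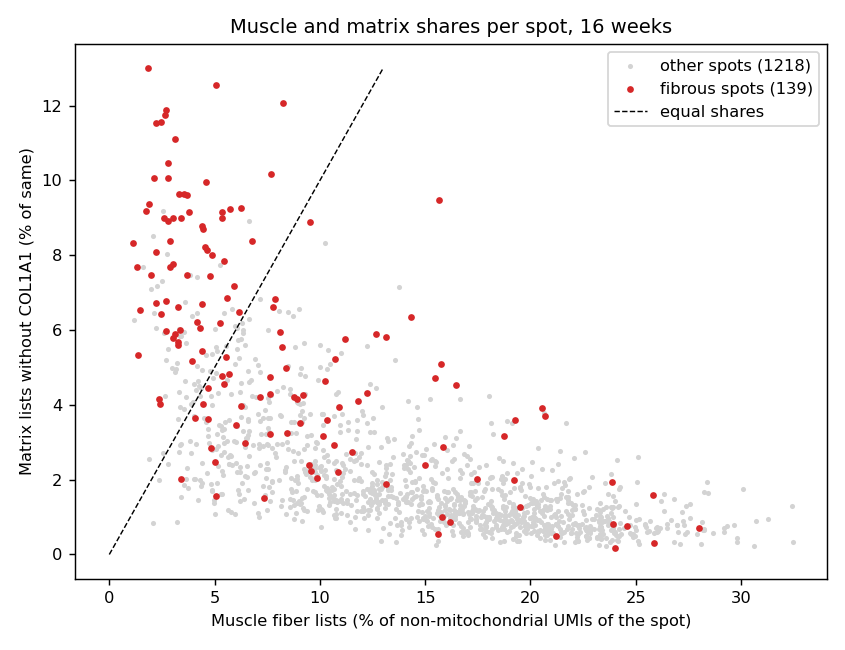
Each point is a spot of the 16-week section, placed by the percent of its non-mitochondrial UMIs in the muscle fiber lists (horizontal) and in the matrix lists without COL1A1 (vertical); red points are the 139 fibrous and grey points the 1218 other spots, and the dashed line marks equal shares. Fibrous spots gather at the upper left, with medians of 5.59% muscle and 5.61% matrix, but a few lie among the muscle-rich grey spots at the lower right.

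Of the collagens, 10 genes of a list of 30 were compared, since 16 had a feature in the table and 6 of these fell under 20 UMIs. In the fibrous spots 6 of the 10 were at least 2-fold higher and none at least 2-fold lower, where 17% and 6.75% of all genes compared were, and their median log2 ratio was 1.99 against 0.25 over all genes. COL1A2, which encodes the partner chain of COL1A1 in type I collagen, ranged from 0 to 216 UMIs in a fibrous spot with a median of 16, and from 0 to 60 with a median of 2 in an other spot. It was detected in 133 of 139 fibrous and 942 of 1218 other spots, and its summed level was 109 against 14.9 (ratio 7.34, interval 6.99 to 7.71). The groups overlapped, but the typical fibrous spot lay far above the typical other spot.

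COL3A1, the type III collagen of young and loose connective tissue, had a median of 16 UMIs in the fibrous and 4 in the other spots, with highest values of 212 and 53. Its ratio was 3.77 (3.60 to 3.94), below that of COL1A2. COL11A1, a fibril-nucleating collagen of cartilage and tendon, was sparser, with UMIs in 42 fibrous and 34 other spots and a ratio of 12.7 (8.90 to 18.4). The fibril-associated COL14A1 and the fibril-regulating COL5A2 had ratios of 6.23 (4.19 to 9.21) and 4.61 (2.86 to 7.31). The basement membrane collagens stood lower, COL4A2 at 1.97 (1.79 to 2.16) and COL4A1 at 1.61 (0.898 to 2.74), and COL12A1 was at 1.21 (0.420 to 2.88). At low muscle share the median log2 ratio of the collagens was 0.78, COL1A2 was at 1.94 and COL3A1 at 1.06, while COL4A2 was at 0.17 and COL12A1 at -1.09. With COL3A1 in place of COL1A1 as the selecting gene, which set 1361 spots against 92, the collagen median was 0.44. Most spots of the section then counted as selected, so this alternative is no like-for-like change of the selecting gene, here or below.

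The small leucine-rich proteoglycans bind collagen fibrils and set their spacing. Of 9 genes compared 6 were at least 2-fold higher, where 17% of all genes compared were. Their median log2 ratio was 1.55, which was 0.70 at low muscle share and 0.19 with COL3A1 as the selecting gene. Of the 6, PRELP and EPYC reached 20 UMIs only through the fibrous spots. KERA (keratocan) stood apart within this family. It had UMIs in 77 of 139 fibrous spots (55.4%, interval 46.7 to 63.8) and in 116 of 1218 other spots (9.52%, 7.93 to 11.3), with highest counts of 10 and 6, and its level was 6.88 against 0.702 (ratio 9.79, 7.92 to 12.1). After thinning, 30.6% of the fibrous and 3.96% of the other spots had KERA. The more widespread LUM (lumican) and DCN (decorin) had UMIs in 124 and 137 fibrous spots and ratios of 3.22 (3 to 3.47) and 2.32 (2.20 to 2.44). OGN (osteoglycin) was at 1.78 (1.57 to 2.00). From all spots to those at low muscle share the log2 ratio went from 3.29 to 2.29 for KERA, from 1.69 to 1.02 for LUM, from 1.21 to 0.77 for DCN and from 0.83 to -0.01 for OGN.

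Of the other matrix proteins 11 of 20 compared genes were at least 2-fold higher and none lower, against 17% and 6.75% of all genes compared. Their median log2 ratio was 1.07, which was 0.62 at low muscle share and 0.44 with COL3A1 as the selecting gene. FN1 (fibronectin), to which cells attach, was at 35.1 against 8.38 (ratio 4.19, 3.88 to 4.52), and MGP, an inhibitor of calcification, at 59.3 against 15.2 (3.89, 3.67 to 4.13). The top spot held 17.4% of the fibrous UMIs of MGP and 11.3% of those of FN1, and without it their log2 ratios were 1.74 and 1.95. EMILIN1, an elastic fiber glycoprotein, was at 5.33 (4.29 to 6.59), TGFBI, a secreted matrix protein induced by TGF-beta, at 5.11 (2.93 to 8.78) and CILP, a matrix protein of cartilage, at 3.94 (2.90 to 5.31). DPT (dermatopontin) and FBN1 (fibrillin 1, of microfibrils) were at 1.83 (1.71 to 1.97) and 1.44 (0.899 to 2.21). SPARC, a common matrix glycoprotein, had 1 UMI in each group and was too sparse to compare.

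FNDC1 and AEBP1 were among the most frequent genes of the 20 with the highest lower bounds of the ratio. FNDC1, a secreted protein with fibronectin type III domains, had UMIs in 106 fibrous and 369 other spots, a median of 3 against 0 UMIs per spot, and a ratio of 8.73 (7.83 to 9.73). AEBP1, which encodes a collagen-binding secreted protein, had UMIs in 120 fibrous and 515 other spots and a ratio of 5.85 (5.30 to 6.46). CPXM1, a carboxypeptidase-like protein, had 16 fibrous UMIs in 11 spots against 4 UMIs (ratio 31.5, 10.2 to 130), MEST, an imprinted gene of mesoderm, 13 against 7 (14.6, 5.43 to 43.3), and PLXDC2 71 against 84 (6.66, 4.79 to 9.25). The intervals of CPXM1 and MEST are wide because they rest on few UMIs, and both genes reached 20 UMIs only through the fibrous spots.

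The enzymes of collagen synthesis and crosslinking had 10 of 14 compared genes at least 2-fold higher, where 17% of all genes compared were. Of the 10, P4HA3 and P3H3 reached 20 UMIs only through the fibrous spots. The list's median log2 ratio was 1.60. That median was 0.76 at low muscle share and 0.29 with COL3A1 as the selecting gene. PCOLCE, which speeds the trimming of procollagen, was at 7.87 against 2.55 (ratio 3.09, 2.64 to 3.60), P3H1, a prolyl 3-hydroxylase, at 3.40 (2.39 to 4.77), and LOX, which crosslinks collagen, at 3.42 (1.64 to 6.75) from 13 fibrous UMIs. PPIB, a prolyl isomerase that helps collagen fold, was at 2.50 (2.17 to 2.89). MIA3, which loads procollagen into transport carriers, had 4 and 51 UMIs (0.618, 0.162 to 1.68), an interval that spans 1. In the wider secretory pathway 6 of 18 genes were at least 2-fold higher, with a median of 0.59 that was 0.04 with COL3A1 as the selecting gene. SEC61A1, the channel of the endoplasmic reticulum, was at 2.98 (2.36 to 3.73) and PDIA4, a disulfide isomerase, at 2.42 (2.00 to 2.91), while SEC61G, a subunit of the same channel, was at 0.789 (0.674 to 0.92).

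The matrix proteases and their inhibitors had 5 of 11 compared genes at least 2-fold higher, where 17% of all genes compared were. Their median log2 ratio was 0.89, which was 0.45 at low muscle share and 0.54 with COL3A1 as the selecting gene. MMP2, a gelatinase, had a median of 3 UMIs in a fibrous and 0 in an other spot, highest values of 26 and 8, and a ratio of 6.95 (6.22 to 7.76). CTSK (cathepsin K), which cleaves collagen in lysosomes and at the cell surface, had UMIs in 122 fibrous and 623 other spots and a ratio of 4.53 (4.12 to 4.97). The remaining members past 2-fold were the inhibitors TIMP1 (3.22, 2.49 to 4.12) and TIMP3 (2.44, 1.70 to 3.45) and the lysosomal protease CTSB (2.20, 1.98 to 2.45). At low muscle share MMP2 and CTSK had log2 ratios of 2.14 and 1.55.

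Of the fibroblast list 10 of 15 compared genes were at least 2-fold higher, where 17% of all genes compared were. FSTL1 among the 10 reached 20 UMIs only through the fibrous spots. The median log2 ratio was 1.42, which was 0.69 at low muscle share and 0.56 with COL3A1 as the selecting gene. PDGFRL, which encodes a protein that resembles the PDGF receptor, had UMIs in 79 fibrous spots (56.8%, interval 48.2 to 65.2) and 112 other spots (9.20%, 7.63 to 11), and a ratio of 9.90 (7.86 to 12.5), and thinned spots had it in 20.9% and 3.87%. SFRP2, a secreted Wnt modulator, had UMIs in 86 fibrous and 259 other spots and a ratio of 6.82 (5.88 to 7.92). Other surface and secreted fibroblast genes stood between 2-fold and 4-fold, FAP at 3.36 (2.51 to 4.48), CD34 at 3.10 (2.60 to 3.69), S100A4 at 3.04 (2.57 to 3.59) and IGFBP6 at 2.67 (2.42 to 2.95). VIM, the intermediate filament vimentin of nearly all non-muscle cells, was at 1.34 (1.2 to 1.48) and PRRX1, a transcription factor of limb mesenchyme, at 1.02 (0.472 to 1.99). NES (nestin), an intermediate filament of progenitor cells and of the muscle end plate and tendon junction, was at 5.78 (4.66 to 7.15), with 14.9% of its fibrous UMIs in 1 spot.

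Of the tendon list 4 genes could be compared, with a median log2 ratio of 3.48, and 3 of them also belong to the matrix lists above (KERA, COL11A1 and THBS4). TNMD (tenomodulin), a membrane protein of tendon cells, had 25 UMIs in 16 fibrous spots and 6 UMIs in 5 other spots (ratio 32.8, 13.2 to 97.9), and it reached 20 UMIs only through the fibrous spots. THBS4 (thrombospondin 4, of tendon and myotendinous junction) had 20 and 27 UMIs (5.84, 3.10 to 10.8). The list's other measured members were too sparse to compare, FMOD with 4 and 2 UMIs, MKX with 3 and 4 and EGR1 with 1 and 7. Per the study's methods, the sections were taken clear of fascia, tendon and junction. At low muscle share the list's median log2 ratio was 2.22 and TNMD had a log2 ratio of 2.89. When spots with 2 or more COL3A1 UMIs (1361) were set against those with none (92) instead, the list's median was -0.58 and TNMD was at -1.12.

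Macrophage genes were higher along with the matrix genes. Of 14 compared 12 were at least 2-fold higher and none lower, against 17% and 6.75% of all genes compared. Their median log2 ratio was 1.35, which was 0.97 at low muscle share and 0.69 with COL3A1 as the selecting gene. SPP1 (osteopontin), secreted by macrophages in damaged tissue, had 54 UMIs in 28 fibrous spots and 24 UMIs in 19 other spots (ratio 17.7, 10.8 to 30). Its top spot held 27.8% of the fibrous UMIs, and the log2 ratio without that spot was 3.72. GPNMB, a membrane glycoprotein of lipid-handling macrophages, had 55 and 56 UMIs (7.74, 5.24 to 11.4). CD68 and CSF1R, a lysosomal marker and the growth factor receptor of macrophages, were at 4.57 (3.17 to 6.52) and 4.13 (3.42 to 4.98), and STAB1, a scavenger receptor, at 4.04 (3.22 to 5.05). LPL (lipoprotein lipase), which muscle and fat also make, was at 0.879 (0.800 to 0.965). The list's features VSIG4 and CHIT1, with no UMI in the fibrous spots, and CD163, with 2 UMIs there against 7, were too sparse to compare.

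Antigen presentation and complement genes followed the same direction. Beside the counts of these lists, 17% of all genes compared were at least 2-fold higher. CD74, the invariant chain of MHC class II, had UMIs in 47 fibrous spots (33.8%, interval 26 to 42.3) and 106 other spots (8.70%, 7.18 to 10.4) and a ratio of 5.85 (4.54 to 7.51), and after thinning the shares were 15.7% and 2.90%. It belongs to the macrophage list as well. Together with HLA-DRA (2.83, 2.16 to 3.67), HLA-DMA (3, 1.67 to 5.17), TAP1 (2.69, 1.36 to 5.04) and TAPBP (2.29, 1.67 to 3.11) it made 5 of 8 antigen presentation genes past 2-fold, with a list median of 1.33 (0.89 at low muscle share and 0.69 with COL3A1 as the selecting gene), and the class I light chain B2M was at 1.64 (1.45 to 1.85). Of the complement list 7 of 9 were at least 2-fold higher (median 1.58, and 0.99 and 0.66 under the same alternatives), C1S reaching 20 UMIs only through the fibrous spots, with C2 at 5.05 (3.33 to 7.59), the inhibitor SERPING1 at 4.42 (3.55 to 5.48), CLU (clusterin) at 3.25 (2.99 to 3.54) and C1QA, also of the macrophage list, at 2.61 (2.03 to 3.33). The lymphocyte and plasma cell list had 2 genes to compare. JCHAIN, the joining chain of secreted antibodies, had 38 UMIs in 21 fibrous spots against 62 in 34 (4.83, 3.14 to 7.35), and MZB1 had 6 against 14 (3.38, 1.06 to 9.36) and reached 20 UMIs only through the fibrous spots. JCHAIN had a log2 ratio of 0.43 at low muscle share. PTPRC, the common leukocyte antigen, was too sparse to compare, with 0 UMIs in the fibrous and 7 in the other spots.

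A pair of features without a gene name, chosen after their values were seen, was also abundant in the fibrous spots. ENSOCUG00000027394 had 3958 UMIs in 89 fibrous spots and 4095 in 500 other spots (ratio 7.62, 7.29 to 7.96), and ENSOCUG00000025374 had 446 in 46 and 494 in 116 (7.12, 6.25 to 8.10). Their counts were concentrated, the top spot holding 20.1% and 23.5% of the fibrous UMIs. No feature of the data matched the RefSeq table used here by identifier, so that table could not name them. At 2 weeks their log2 ratios were 3.66 and 4.72. In the fresh healthy section they were -0.92 and -0.87, from 1 and 0 UMIs in its fibrous spots. In the stored healthy section both were too sparse to compare.

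Vessel genes were mixed. Of 7 endothelial genes compared 4 were at least 2-fold higher (median 1.01), where 17% of all genes compared were. These were VWF (von Willebrand factor) at 2.42 (2.10 to 2.79), CD34 as above, TEK at 2.07 (0.605 to 5.74, an interval that spans 1) and ROBO4 at 2.00 (1.35 to 2.88). CAV1 of membrane caveolae was at 1.15 (1 to 1.31). A further 7 features of the list were too sparse to compare, among them CDH5, EMCN, CLEC14A and SELE, which had no UMI in the fibrous spots. The smooth muscle and pericyte list had a median of -0.25, with ACTA2 (smooth muscle actin) at 2.13 (1.84 to 2.45) and DES (desmin, which muscle fibers share) at 0.409 (0.299 to 0.547) as the members past 2-fold. MYH11, the smooth muscle myosin, was at 0.996 (0.680 to 1.42). At low muscle share the endothelial median was 0.54, ROBO4 had a log2 ratio of 0.24 and ACTA2 one of 0.00. The nerve and Schwann cell list had 2 genes to compare, NCAM1 at 4.2 (1.54 to 10.6) from 8 fibrous UMIs and S100B at 1.14 (0.858 to 1.48), and its median of 1.15 was -0.65 at low muscle share, where S100B alone had enough UMIs. NCAM1, and KIT named next, reached 20 UMIs only through the fibrous spots. The mast cell list rested on KIT, with 5 and 16 UMIs (2.46, 0.706 to 7.04), and the blood list on ALAS2, with 3 and 60 (0.394, 0.0790 to 1.21).

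By their median, adipocyte genes were not higher in the fibrous spots, at a log2 ratio of -0.21 against 0.25 over all genes. None of 8 was at least 2-fold higher and 1 was at least 2-fold lower, against 17% and 6.75% of all genes compared. With so few genes these counts lie near those shares, so they are no result about adipocyte genes. PPARG, the regulator of fat cell formation, was at 1.08 (0.729 to 1.54), ADIPOQ (adiponectin) at 1.39 (0.477 to 3.35) from 6 fibrous UMIs and SNCG at 12.8 against 15 (0.853, 0.765 to 0.950). THRSP was the member past 2-fold lower on the log2 scale, with 0 and 20 UMIs (interval of the ratio 0 to 1.60), and the list's median with this gene at its bound was -0.14. With mitochondrial genes in the denominator the list's median was 0.11, and at low muscle share it was -1.14, with SNCG at -1.31.

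Muscle fiber genes were lower in the fibrous spots, in the fast, the slow and the shared lists alike. At least 2-fold lower were 3 of 7 fast fiber genes (median log2 ratio -0.95), 5 of 11 slow fiber genes (-0.92) and 12 of 31 genes of both fiber types (-0.91). Over all genes compared, 6.75% were at least 2-fold lower and 17% at least 2-fold higher. Of all 3 lists ANKRD1 was the gene at least 2-fold higher. MYH7, the slow myosin heavy chain, ranged up to 320 UMIs with a median of 10 in a fibrous spot and up to 400 with a median of 27 in an other spot. It had UMIs in all 139 fibrous spots, and its level was 149 against 263 (ratio 0.566, 0.548 to 0.583). MYH1, a fast heavy chain, had medians of 4 and 12 UMIs and a ratio of 0.415 (0.394 to 0.437). No fibrous spot was thus free of fiber transcripts, and the 2 fiber types differed little in their medians. At low muscle share the medians of the fast, slow and shared lists were -0.39, -0.71 and -0.39. These lists make up the share that is limited there, so the choice of spots itself drew their medians toward equal levels.

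Of the slow list, the light chain MYL3 was at 0.430 (0.407 to 0.453), the calcium pump ATP2A2 at 0.445 (0.398 to 0.496) and troponin C (TNNC1) at 0.498 (0.474 to 0.522), with MYOZ2 at 0.481 (0.379 to 0.602) and PLN, the inhibitor of that pump, at 0.288 (0.0583 to 0.873) from 3 fibrous UMIs. The light chain MYL2 and troponin I (TNNI1) were at 0.645 (0.627 to 0.663) and 0.628 (0.594 to 0.663), and CASQ2, the calcium-binding protein of the slow fiber store, was at 1.59 (1.32 to 1.89), with 19.1% of its fibrous UMIs in 1 spot. Of the fast list, ACTN3, the fast Z-disc actinin, was at 0.390 (0.305 to 0.492) and the minor myosin MYH13 at 0.274 (0.0735 to 0.721) from 4 fibrous UMIs, while the calcium pump ATP2A1 was at 0.518 (0.471 to 0.569) and the light chain MYL1 at 0.733 (0.692 to 0.775). Members of 1 list thus spread widely around its median.

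STRIT1, which encodes a small peptide that activates the calcium pump, had a median of 1 UMI in a fibrous and 5 in an other spot and a level of 21.1 against 59.1 (ratio 0.357, 0.329 to 0.387). Its log2 ratio was -1.45 at low muscle share, where MYH7 was at -0.78 and MYH1 at -0.60. MYH7 and MYH1 are part of the muscle share that is limited there, so no contrast with STRIT1 is drawn from them. ANKRD2, a stretch-responsive protein of slow fibers, was at 0.301 (0.224 to 0.396) and C1orf43 at 0.442 (0.406 to 0.480), and at low muscle share they were at -1.14 and -1.15. The giant thin filament protein NEB was at 0.475 (0.443 to 0.509), SMPX at 0.392 (0.298 to 0.507), the M-band protein MYOM1 at 0.373 (0.25 to 0.538) and KLHL41, which stabilizes NEB, at 0.307 (0.162 to 0.532). The remaining genes with the lowest upper bounds were SUCLG2, a subunit of a citric acid cycle enzyme, at 0.201 (0.0540 to 0.524), the phosphatase PPM1J at 0.200 (0.0537 to 0.521) and MRPS36 at 0.407 (0.301 to 0.540), the former pair from 4 fibrous UMIs each. TRIM63, a ubiquitin ligase of muscle wasting, had 1 UMI in the fibrous and 80 in the other spots (0.0985, 0.00246 to 0.565), and CRYAB, a small heat shock protein of muscle, was at 0.770 (0.737 to 0.804).

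Single spots decided some muscle values. ANKRD1, a stress-induced muscle protein, had 173 and 432 UMIs (ratio 3.16, 2.63 to 3.77), but 41% of the fibrous UMIs came from 1 spot and the log2 ratio without it was 0.95. MYH8, the perinatal myosin of regenerating fibers, had 79 UMIs in 21 fibrous spots and 96 in 52 other spots (ratio 6.49, 4.75 to 8.83). Of its fibrous UMIs 46.8% came from 1 spot, and its log2 ratio was 2.70 with that spot and 1.85 without it. MYL4, an embryonic light chain, had a ratio of 3.55 (2.85 to 4.41), whereas ACTC1, the cardiac actin of immature fibers, had one of 1.06 (0.993 to 1.14). MYF6, a muscle regulatory factor, had 3 and 45 UMIs (ratio 0.525, 0.104 to 1.64). With NCAM1, 3 of the 7 genes of the regenerating list were thus at least 2-fold higher, where 17% of all genes compared were. NCAM1 among these reached the minimum of UMIs only through the fibrous spots, so it had to differ. The list's median log2 ratio was 0.74, which was 0.08 with all spots weighted equally. The list's summed level was 42.1 in the fibrous and 33.7 in the other spots, but its median per spot was 7.54 in a fibrous and 23.4 in an other spot, and over the classes of 1, 2, 3, 4 and 5 or more COL1A1 UMIs it stood at 29.5, 31.5, 32.1, 35.3 and 98.1. The higher summed level thus came with the last class, of 17 spots, in which a single spot weighed heavily. That spot held 10522 of the 44041 non-mitochondrial UMIs of the class and 37 of its 49 MYH8 UMIs. A summed level of the list without that spot is not given here.

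Of the signaling lists, the TGF-beta family and its targets had 6 of 16 genes at least 2-fold higher (median 0.57), FSTL1 and SKIL among these having reached 20 UMIs only through the fibrous spots, with the matricellular targets CCN2 at 4.01 (2.87 to 5.55) and CCN1 at 2.69 (2.23 to 3.22), the ligand TGFB3 at 2.01 (1.46 to 2.71) and the antagonist FST at 0.751 (0.314 to 1.55). The Wnt list had 6 genes to compare, while 17 of its features fell under 20 UMIs. SFRP2 was its member past 2-fold higher and the antagonist FRZB, with 0 and 22 UMIs, its member past 2-fold lower (median 0.34), and WNT5B was at 1.09 (0.560 to 1.96). Over all genes compared, the background for each list here, 17% were at least 2-fold higher and 6.75% at least 2-fold lower. For the Wnt list, 1 of 6 higher is about the share over all genes. Of the IGF system IGFBP6 and IGFBP4 (2.00, 1.30 to 3.01) were past 2-fold among 5 (median 0.86), and IGF1 was at 1.13 (0.848 to 1.49). Among cytoskeletal genes of non-muscle cells CAPG (4.16, 3.21 to 5.35), TMSB10 (2.13, 1.88 to 2.41) and MYH9 (2.01, 1.38 to 2.86) were past 2-fold of 10 (median 0.83), and among cell cycle genes MCM5 (4.50, 1.64 to 11.5), MCM3 (2.87, 1.10 to 6.68) and CCND2 (2.06, 0.958 to 4.08) of 4 (median 1.33), each of these on at most 11 fibrous UMIs and MCM5 reaching 20 UMIs only through the fibrous spots.

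The nuclear-encoded respiratory chain had none of 25 genes past 2-fold, but all 25 had log2 ratios below 0, from -0.96 for UQCRB of complex III to -0.19 for NDUFS5 of complex I, with a median of -0.51. With mitochondrial genes in the denominator 19 of the 25 were below 0 and 6 above it, NDUFS5 at 0.13 among these, with a median of -0.19. The cytosolic ribosomal proteins lay closest to equal levels, with none of 13 past 2-fold, a median of 0.05 and members from RPL37 at 0.751 (0.711 to 0.792) to RPL4 at 1.29 (1.18 to 1.41). Their summed level was slightly lower in the fibrous spots (473 against 498), the opposite sign from their median, and the median became -0.19 after centering on the median gene and -0.01 with all spots weighted equally.

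Levels of the matrix genes climbed and those of the muscle genes declined with the number of COL1A1 UMIs in a spot. The spots with 0, 1, 2, 3, 4 and 5 or more COL1A1 UMIs numbered 1218, 243, 73, 30, 19 and 17. COL1A2 stood at 14.9, 34.4, 56.6, 138, 153 and 227 in these classes and KERA at 0.702, 1.49, 3.72, 8.80, 12.1 and 11.6. The collagen list went from 52.6 in spots with 0, through 97.5 with 1 and 145 with 2, to 433 with 5 or more COL1A1 UMIs. The muscle fiber lists together were at 1696, 1433, 1207, 670, 759 and 696. For the muscle lists and KERA the largest step between neighboring classes, as a difference of levels on the linear scale, was that from 2 to 3 COL1A1 UMIs, and on that scale the spots just inside the rule, with 2, lay nearer to those just outside it, with 1, than to those with 3 for the muscle lists, COL1A2 and KERA.

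**Figure D2:**
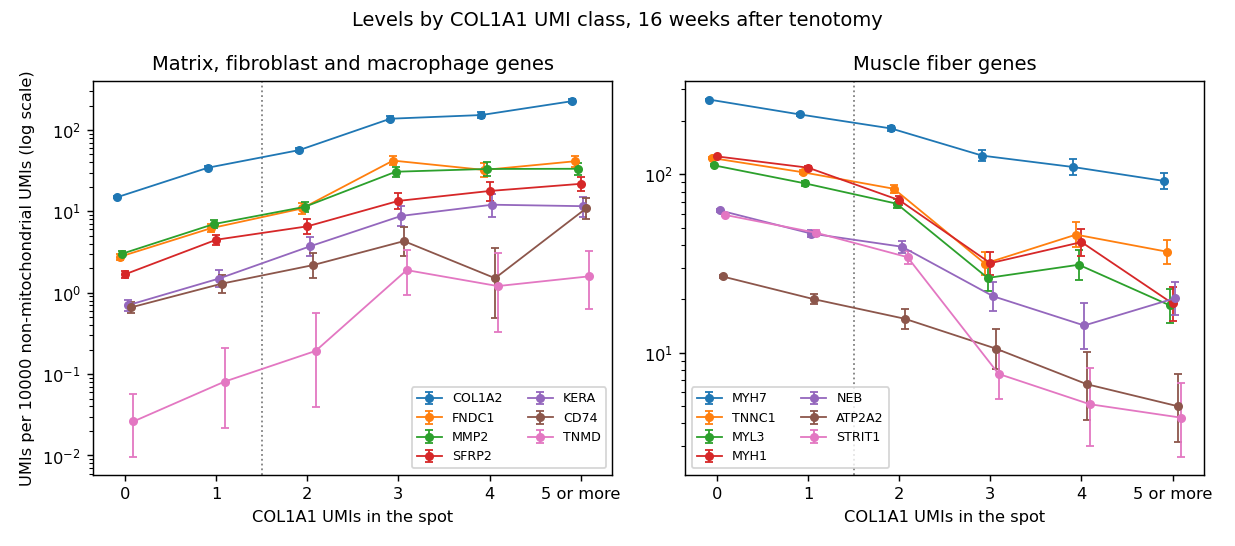
Levels (UMIs per 10000 non-mitochondrial UMIs, log axis) of matrix, fibroblast and macrophage genes (left) and muscle fiber genes (right) in spots grouped by COL1A1 UMIs; points are summed levels, bars 95% exact intervals for counting error, and the dotted line marks the border of the fibrous spots. COL1A2 climbs from 14.9 to 227 over the classes while MYH7 declines from 263 to 91.7, and STRIT1 declines from 59.1 to 4.31.

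Not all lists followed the COL1A1 count. The macrophage list went from 30.5 with 0 and 45.2 with 2 to 63.1 with 3 COL1A1 UMIs, and stayed at 60.1 and 61.5 above that. Its sum includes LPL, which muscle and fat also make. The list's summed ratio of fibrous to other spots was 1.74 (1.64 to 1.84), while its median log2 ratio was 1.35. The adipocyte list was level at 37.8, 38, 36.8, 32.6 and 35.3 up to 4 UMIs and was at 18.2 in the 17 spots with 5 or more. CD74 was at 10.9 (interval 8.04 to 14.4) and MYH8 at 11.1 (8.23 to 14.7) in those 17 spots, against 1.51 (0.490 to 3.52) and 1.21 (0.329 to 3.09) in the 19 spots with 4. In each case 1 spot weighed heavily, and without the top spot of the gene the 17 spots stood at 7.92 for CD74 and 3.58 for MYH8.

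Within the fibrous spots, the 70 with a muscle share up to their median and the remaining 69 differed in the same genes. COL1A2 was at 175 in the muscle-poor and 63.5 in the muscle-rich fibrous spots, FNDC1 at 43.9 and 10.2, and KERA at 11.8 and 3.40. COL1A1 itself was at 20.5 and 10.7. NES was at 4.41 and 5.92 and MYH8 at 1.58 and 3.51, in the muscle-poor and the muscle-rich spots. NES and MYH8 had the same top spot, which lay among the muscle-rich spots. Without it the muscle-rich spots stood at 4.87 for NES and 1.44 for MYH8. SPP1 was at 2.16 and 1.64. The macrophage list, LPL included, was at 72.6 and 39.1 and the adipocyte list at 41.1 and 27.2.

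The same rule was applied to the other sections for comparison, and these have other denominators, muscles and depths. It gave 369 fibrous spots of 854 at 2 weeks (43.2%, interval 39.9 to 46.6), 222 of 2440 in the stored healthy section (9.10%, 7.99 to 10.3) and 15 of 1950 in the fresh healthy section (0.769%, 0.431 to 1.27). These intervals count the spots of 1 section each and cover no variation between sections, so they give no comparison of conditions. Median UMIs per fibrous spot were 5009, 6588 and 4883 in these sections, more than the 2009 at 16 weeks, and a deeper spot reaches 2 COL1A1 UMIs more readily, so that the shares are not comparable at equal depth. Genes at least 2-fold higher in the fibrous spots made up 9.17% of 3772 genes at 2 weeks, 13.5% of 4617 in the stored and 28.9% of 4123 in the fresh healthy section, and genes at least 2-fold lower 1.7%, 4.66% and 6.74%.

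The matrix genes ran the same way in all 4 sections. The collagen list had median log2 ratios of 1.19 at 2 weeks, 1.68 in the stored and 1.84 in the fresh healthy section, against 1.99 at 16 weeks, and 6 of 8, 9 of 10 and 5 of 6 compared collagens were at least 2-fold higher. COL1A2 was at 1.71, 2.22 and 3.37, against 2.88 at 16 weeks. KERA was at 2.30 at 2 weeks, 2.71 in the stored healthy section and 3.29 at 16 weeks. MMP2 was at 0.94 at 2 weeks, 1.73 in the stored and 3.26 in the fresh healthy section, against 2.80 at 16 weeks. These differences between sections were not tested, since each rests on 1 section.

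Of the fiber lists, the slow one changed sign between sections. The list of both fiber types had medians of -0.91 at 16 weeks, -0.21 at 2 weeks, -0.43 in the stored and -0.13 in the fresh healthy section, below 0 in all 4, and so was the fast list. The slow fiber list had a median of -0.92 at 16 weeks and -0.50 at 2 weeks, but 0.61 in the stored and 0.93 in the fresh healthy section, with MYH7 at -0.82, -0.66, 0.94 and 0.99. The fast fiber list was at -0.95, -0.04, -1.59 and -0.49 in the same order, with MYH1 at -1.27, -0.04, -1.62 and -0.71. By list medians, slow fiber genes were thus higher and fast fiber genes lower in the fibrous spots of both healthy sections. At 16 weeks both medians were below 0. For stored healthy muscle, 2 of 11 slow genes were at least 2-fold higher and 6 of 7 fast genes at least 2-fold lower. Fresh healthy muscle, with 15 fibrous spots, had 4 of 11 slow genes at least 2-fold higher. Of its 7 fast genes none was 2-fold lower and 1 was 2-fold higher. Over all genes compared, 13.5% were at least 2-fold higher and 4.66% at least 2-fold lower in the stored healthy section. For the fresh healthy section these shares were 28.9% and 6.74%. The counts of slow genes past 2-fold higher lay near these shares, so they are no result about slow genes. The median over all genes compared was 0.25 at 16 weeks, 0.07 at 2 weeks, 0.22 for stored and 0.48 for fresh healthy muscle. ANKRD2 was at -1.72 at 16 weeks and at 0.69 in both healthy sections. The regenerating list had a median of 0.74 at 16 weeks, 1.26 at 2 weeks and 1.63 in the stored healthy section, and ACTC1 stood at 0.09, 1.71 and 1.60. In the fresh healthy section, with 15 fibrous spots, the list's median was 3.56 from 3 genes compared. MYH11 was at 0.01 at 16 weeks, 2.17 at 2 weeks and 1.24 in the stored healthy section.

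**Figure D3:**
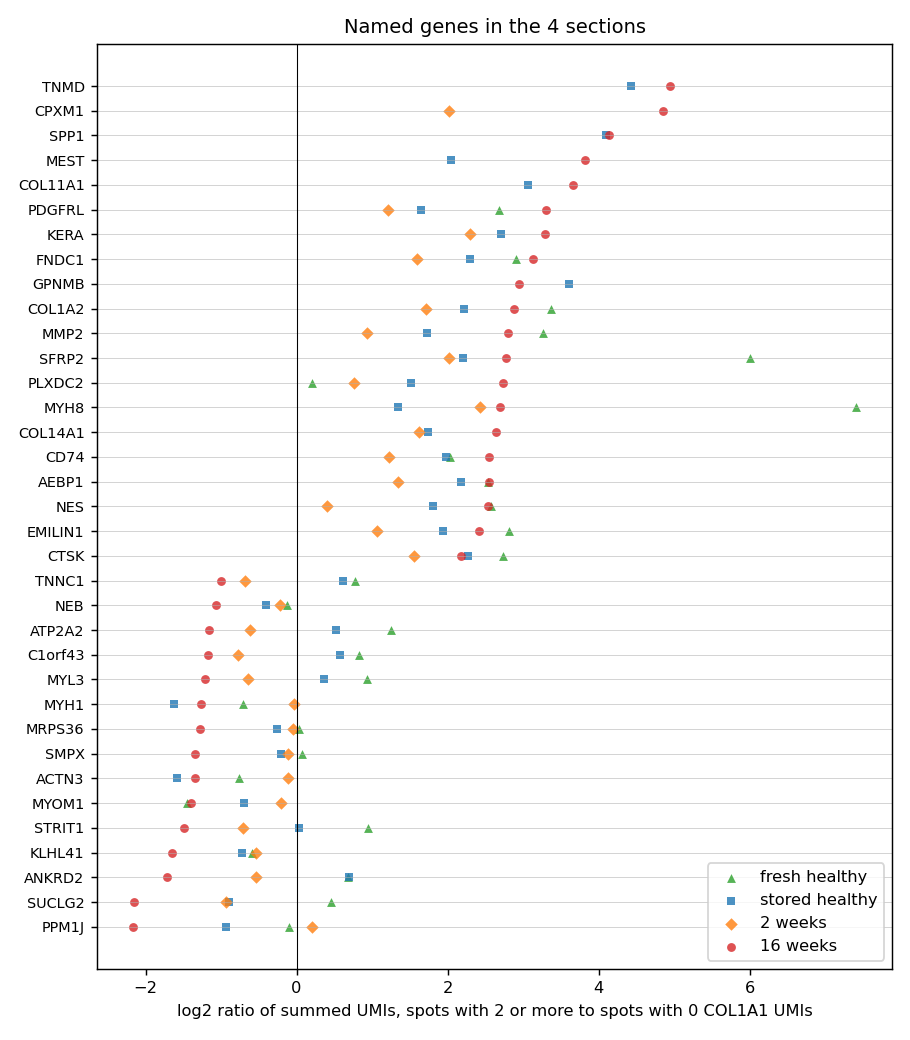
Log2 ratios of summed UMIs between spots with 2 or more and spots with 0 COL1A1 UMIs for the 35 genes chosen by the size of their ratio at 16 weeks (red circles), in the section taken at 2 weeks (orange), the stored healthy (blue) and the fresh healthy section (green); genes under 20 UMIs in a section have no point there. The points of the upper 20 genes lie to the right of 0, though some of these genes, TNMD and COL11A1 among them, have none at 2 weeks or in the fresh healthy section. TNNC1, ATP2A2, MYL3 and ANKRD2 lie to the left in both tenotomy sections and to the right in both healthy sections.

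The position of single spots was not known, because no key from barcode to position was used here. The 4 capture areas carry the same printed set of barcodes, so that 602, 1454 and 1377 barcodes of the 16-week section also occurred in the 2-week, stored and fresh healthy sections, which marks shared positions and not shared cells. The spots of the 16-week section could therefore be sorted into groups by which other sections covered the same position. Of the 124 spots whose position was otherwise covered in the fresh healthy section alone, 33 were fibrous (26.6%, interval 19.1 to 35.3), in a group with a median array row of 23 and a median column of 101. The share was 9.59% (68 of 709) where the stored and fresh healthy sections lay, 4.69% (24 of 512) where all sections lay and 4.52% (9 of 199) where the stored healthy section alone lay. The matrix lists stood at 412 per 10000 in the spots of the first of these groups, against 245, 145 and 222 in the others, and the muscle lists at 1103 against 1594, 1651 and 1482. Neighboring spots share tissue, so the intervals treat spots as more independent than they are.

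**Figure D4:**
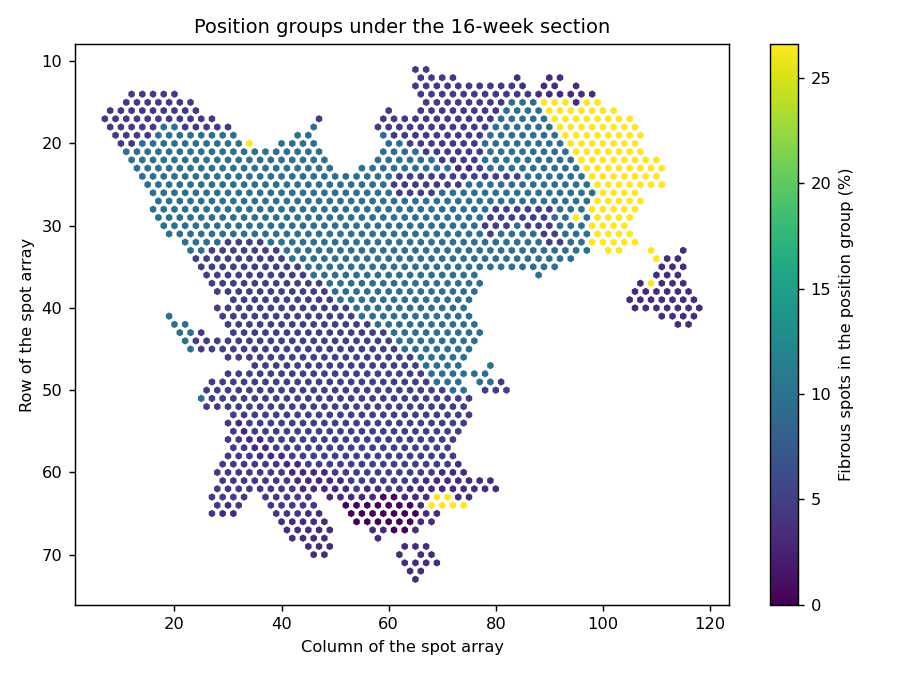
The positions under the 16-week section, drawn by row and column of the spot array and colored by the percent of fibrous spots in the group to which each position belongs; groups are defined by which other sections covered the same position, and the place of single fibrous spots within a group is not shown. The group with the highest share, 26.6%, lies mostly at the upper right edge of the section.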

How the data were processed

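Rabbit supraspinatus sections were measured with 10x Genomics Visium (3′ capture). The authors made the deposited raw UMI counts with Space Ranger 1.2.0 on the OryCun2.0 genome build with an Ensembl annotation, aligned the images by hand and kept spots under tissue, each section in files of its own. The section at 16 weeks held 4743522 UMIs over 1726 spots and 21139 features, of which 9903 had a symbol of their own.

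Counts were summed per gene over the fibrous and the other spots, the 37 mitochondrial genes were left out of the denominator, and genes with at least 20 UMIs in both groups together were compared. Ratios have exact conditional (Clopper-Pearson) 95% intervals from SciPy 1.17.1, list intervals and shares exact binomial ones, all for counting error only. Log2 ratios had 0.5 UMI added to each sum. A call is a ratio past 2-fold. With 1 section per condition no test was made. Spots were not screened for doublets, as each covers several cells. The ratios and the thinning (seed 1) were tested on simulated data. Named genes are members of 29 fixed lists, the 20 genes with the highest lower bound and the 15 with the lowest upper bound of the ratio. The members and lists were chosen with earlier results of these data known. No feature matched the RefSeq gene table by identifier, so no coordinates or sequences are given. Alternatives concerned the UMI limits, denominator, weighting, thinning, depth (other spots between the 10th and 90th percentile of the fibrous spots' UMIs), selecting gene, centering, gene filter and the top spot of each gene.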

Additional observations from a re-analysis of the deposited data

Results flagged for a closer look

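Some contrasts between the fibrous and the other spots had opposite signs in different sections, and these differences were not tested, since each section stands alone. The slow fiber list had a median log2 ratio of -0.92 at 16 weeks against 0.61 in the stored healthy section and 0.93 in the fresh healthy section. The medians over all genes compared were 0.25, 0.22 and 0.48 in the same order. In both healthy sections the counts of slow genes at least 2-fold higher lay near the shares over all genes. ATP2A2, the calcium pump of slow fibers, had a log2 ratio of -1.17 at 16 weeks against 1.25 in the fresh healthy section. In that section 15 fibrous spots stood behind this value and that of the slow list.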

How the results depend on the processing

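The values describe 1 section, have no replicates and cover counting error only. No paired analysis was possible because each condition has 1 section and no result comes from a test. The counts of calls moved most. Genes at least 2-fold higher (747) and lower (296) numbered 1058 and 574 with at least 3 COL1A1 UMIs, 1363 and 474 with at least 5, 375 and 108 with at least 1, and 1272 and 169 with mitochondrial genes in the denominator. They were 400 and 210 after thinning, 433 and 228 with the 871 other spots of 867 to 5071 UMIs (the 10th to the 90th percentile of the fibrous spots), 448 and 494 after centering on the median gene, 409 and 148 with a minimum of 50 UMIs per gene, 3455 and 622 with a minimum of 1, and 492 and 588 with the top spot of each gene left out. They were 572 and 480 with COL3A1 as the selecting gene (1361 against 92 spots) and, at low muscle share, a choice made after seeing the data, 193 and 174. Weighting all spots equally gave 676 and 434. The share of calls that were higher was 71.6% as reported, 88.3% with mitochondrial genes in the denominator, 60.9% with equal weights, 47.6% after centering, 45.6% without the top spots, 54.4% with COL3A1, 52.6% at low muscle share and 84.7% with a minimum of 1 UMI.

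The collagen median (1.99) was 2.47 with at least 3 and 2.69 with at least 5 COL1A1 UMIs, 0.44 with COL3A1 (collagen genes then without it) and 0.78 at low muscle share, and the macrophage median (1.35) was 0.69 with COL3A1. The median of the genes of both fiber types (-0.91) was -1.51, -1.63 and -0.46 with at least 3, 5 and 1 COL1A1 UMIs, -0.59 with mitochondrial genes in the denominator, -0.25 with COL3A1 and -0.39 at low muscle share, a limit set on these same genes. Median UMIs per other spot were 2025.5 with no minimum and 2689 with at least 1000 UMIs, and median genes 604 and 694. Thinned spots had 310 (fibrous) and 289 (other) genes. The median mitochondrial share of a fibrous spot (14.8%) was 12.2%, 10.3% and 22.3% with at least 3, 5 and 1 COL1A1 UMIs.

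Opposite signs came mainly from COL3A1 as the selecting gene, with the tendon list at -0.58, the blood list and its gene ALAS2 at 0.69, TNMD at -1.12, CPXM1 at -2.50, COL11A1 at -0.79, THBS4 at -0.37, JCHAIN at -0.39, MCM5 at -0.79, CD68 at -0.18, CAPG at -0.11, FAP at -0.0541, CCND2 at -0.78, PLN at 0.33, MYH13 at 0.998, SUCLG2 at 0.020 and THRSP at 0.54. With at least 5 COL1A1 UMIs CCND2 was at -0.71, THRSP at 0.34 and FRZB at 0.21, and with at least 1 MYH13 was at 1.24. Thinning gave -0.50 for the Schwann cell list, -0.48 for IGFBP4, 0.20 for PLN and 0.00837 for SUCLG2, equal weights -0.24 for the mast cell list and KIT, and low muscle share -0.65 for the Schwann cell list. The cause of these differences was not tested. Of the 131 genes followed, the other values kept their sign where they were past 2-fold.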
